A study of Taeniopygia guttata with 134 samples.

Results

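The genes described here are the 134 genes whose read level was lower after LPS in each of 3 brain regions of male zebra finches. They are 134 of 13548 genes that reached a mean control level of 1 CPM (read counts scaled to the library total), which is 0.989% of those genes, and of 18618 genes in the whole table. Membership was set by D, the mean over the 4 social settings of the LPS group mean minus the control group mean on a log2 CPM scale with a prior count of 0.5. A member had D at or below -0.4 in each region and a control level, averaged over the 3 regions, of at least 1 CPM. The difference between LPS and control therefore chose the members and is given below as a description, without a test.

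Male zebra finches (Taeniopygia guttata, a pair-bonding songbird) received either LPS, labelled L, or a control injection, labelled S in the sample names and C in the design text. Each male was then kept in 1 of 4 settings: alone (ISO), with a familiar female throughout (KFC), with a familiar female again after separation (KF), or with an unfamiliar female (NF). RNA was sequenced from 3 regions of the 46 males: the nucleus taeniae (TN, 43 libraries), the hypothalamus (HY, 45 libraries) and the stria terminalis bed nucleus (NST, 46 libraries). Each combination of region, setting and injection held 4 to 6 males, no strain or age is used here. How much was injected, and how long before dissection, is not given in the sources used here.

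LPS, or lipopolysaccharide, is a component of the outer membrane of Gram-negative bacteria. Injected into birds or mammals, it is recognised by the innate immune system, raises cytokines and brings on sickness behaviour, with reduced feeding, activity and social contact. The hypothalamus governs fever, feeding and hormone release, the bed nucleus links it to social and defensive circuits, and the nucleus taeniae is regarded as a counterpart of part of the mammalian amygdala. The files identify genes by Ensembl identifier only, and 0 of the 18618 identifiers were found in the gene table at hand. The members are therefore described by their measured behaviour, 2 of them by identifier, and neither their functions nor the labelled tissues could be checked against known marker genes. In tissue RNA of this kind, fewer cells of one type and less RNA per cell cannot be told apart.

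Library totals ran from 7339294 to 14096470 counts. Each library was compared with the median of its region across genes of at least 1 CPM. The HY control library of male 44 stood furthest from it, at a Pearson r across genes of 0.896, whereas the 130 libraries not set aside below lay between 0.954 and 0.978. NST 4, NST 3 and NST 19, also set aside below, lay within that range, at 0.959, 0.964 and 0.969. The HY libraries of LPS males 32 and 33, both of KF, matched the other males' numbers: deviations from the group mean in NST 32 correlated at -0.13 with HY 32 and at 0.58 with HY 33. The NST library of LPS male 19 matched neither of its partners, at 0.097 with HY and 0.041 with TN. An exchange between males 32 and 33 leaves every group mean as it is, because both belong to 1 group. Without HY 44, NST 3, NST 4 and NST 19, which earlier results of these data had set aside, the rule gave 149 genes, 131 of them among the 134.

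The lowering was moderate in most members. The median D of the members was -0.72, -0.75 and -0.67 in HY, NST and TN, beside medians of -0.0017, -0.015 and 0.024 over all 13548 genes. The mean D over regions ran from -1.67 to -0.44, and 23 members had a mean D of -1 or less. A further 211 genes met the threshold in 2 regions and 508 in 1 region, and the mirror rule, D of at least 0.4 in all regions, was met by 335 genes. The 3 members just inside the threshold had a highest D of -0.401, -0.402 and -0.403, and the 3 genes just outside it had -0.396, -0.391 and -0.390.

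**Figure D1:**
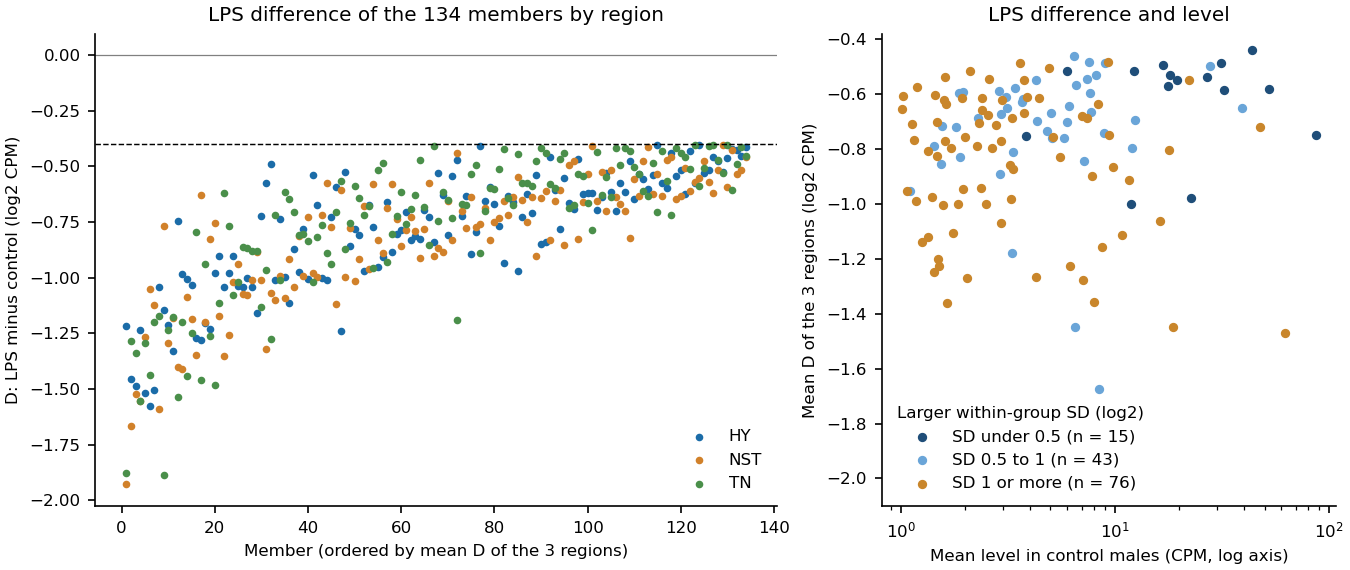
Left, D (LPS minus control, log2 CPM) of each of the 134 members in HY, NST and TN, ordered by the mean of the 3 regions, with the threshold of -0.4 dashed. Right, mean D against the mean control level (CPM, log axis), coloured by the larger of the within-group SDs in control and LPS males. The 15 members of SD under 0.5 sit at mean D between -0.999 and -0.44. The 43 members of SD 0.5 to 1 reach -1.67, and the 76 members of SD 1 or more reach -1.47.

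The members were genes with few reads. Their median control level was 3.69 CPM, with a range of 1.02 to 86.7 CPM, beside a median of 24.03 CPM over all 13548 genes. Levels in CPM are not corrected for transcript length, so this order is one of read numbers. The threshold on D was fixed and made no allowance for the spread between males, which in counts goes with low read numbers. With a prior count of 2, 111 genes met the rule, 110 of them members. How far the rule sets these low levels was not tested, so nothing about LPS is read from them. Only 25 members (18.7%) had a control level of 10 CPM or more, against 69.6% of all genes, and 37 members lay under 2 CPM. The median level of the members in control males was 3.99 CPM in HY, 3.85 CPM in NST and 3.02 CPM in TN. In LPS males the same medians were 2.77, 2.503 and 2.14 CPM.

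ENSTGUG00000003098 had the highest control level of all members, and its D was also the largest relative to the spread between males. In HY its level was 94.9 ± 10.1 CPM (SD, n = 23) in control males, with a lowest value of 75.8, a median of 97.6 and a highest value of 114.9. In LPS males of HY it was 54.4 ± 9.86 CPM (SD, n = 22), from 37.5 through a median of 53.6 to 73.9. No LPS male reached the lowest control male in HY.

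In NST ENSTGUG00000003098 stood at 85.7 ± 8.93 CPM (SD, n = 23) in control males, with lowest, median and highest values of 73.0, 82.5 and 105.1. In LPS males of NST it stood at 52.8 ± 10.8 CPM (SD, n = 23), with 36.8, 51.8 and 70.5, so the groups again did not overlap. In TN it stood at 79.4 ± 8.31 CPM (SD, n = 22) in control males and at 49.7 ± 9.13 CPM (SD, n = 21) in LPS males. Here the groups met: the lowest control male had 58.9 CPM and the highest LPS male 63.6 CPM. Its D was -0.83, -0.73 and -0.69 in HY, NST and TN.

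The group means of ENSTGUG00000003098 spanned a wider range over settings in LPS males than in control males. In HY the LPS males averaged 64.2 ± 6.81 CPM (SD, n = 6) in ISO, 53.4 ± 9.18 (n = 6) in KF, 52.2 ± 9.73 (n = 5) in NF and 46.01 ± 3.76 (n = 5) in KFC. The control means of the settings lay between 93.4 and 96.5 CPM in HY, 82.8 and 90.4 CPM in NST, and 71.5 and 84.2 CPM in TN. ISO was the highest control group in NST and TN, and NF the lowest. ISO was also the highest and KFC the lowest LPS group in NST, at 63.2 ± 5.80 (SD, n = 6) and 44.5 ± 4.69 CPM (n = 5), and in TN, at 56.3 ± 6.37 (n = 6) and 40.5 ± 3.61 CPM (n = 5). In no region did a KFC LPS male reach the lowest ISO LPS male, whose level in HY, NST and TN was 54.4, 54.7 and 44.9 CPM. The highest KFC LPS male stood at 50.3, 49.6 and 43.5 CPM. These groups were picked as the highest and lowest of the 4 after their values were seen, so nothing is read from this separation. The interaction of LPS with setting in edgeR's quasi-likelihood test gave unadjusted p-values of 0.080, 0.18 and 0.0033 in HY, NST and TN. After Benjamini-Hochberg adjustment over all genes of the region the edgeR p-values were 0.87, 1.0 and 0.99, so these differences between settings did not pass the threshold.

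ENSTGUG00000015451 shows another way in which a gene met the rule. Its identifier was chosen for display after its values were seen, as the member whose spread between LPS males exceeded that between control males the most. Its within-group SD was 0.60 log2 units in control males and 2.46 in LPS males. In HY its level was 7.66 ± 2.52 CPM (SD, n = 23) in control males, from 1.64 through a median of 7.45 to 11.2, and 6.07 ± 3.43 CPM (SD, n = 22) in LPS males, from 0 through 5.73 to 10.5. In HY 3 LPS males lay below the lowest control. These, males 8, 14 and 24, were at 0 or 0.10 CPM in every region sampled.

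The same 3 males were the lowest for ENSTGUG00000015451 in the other regions. In NST it was at 9.29 ± 3.22 CPM (SD, n = 23) in control males, none below 3.90, and at 6.79 ± 4.18 CPM (SD, n = 23) in LPS males, of which 6 lay below the lowest control. In TN it was at 9.13 ± 2.82 CPM (SD, n = 22) in control males, none below 3.02, and at 6.78 ± 4.37 CPM (SD, n = 21) in LPS males. Its D of -1.03, -1.18 and -1.25 in HY, NST and TN is larger than that of ENSTGUG00000003098. Without male 24 these became -0.67, -0.88 and -0.75, and with medians in place of means over the males of a group they became -0.43, -0.65 and -0.61. With edgeR, its LPS change gave adjusted p-values of 0.70, 0.41 and 0.54 in HY, NST and TN, values from the contrast that chose it.

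**Figure D2:**
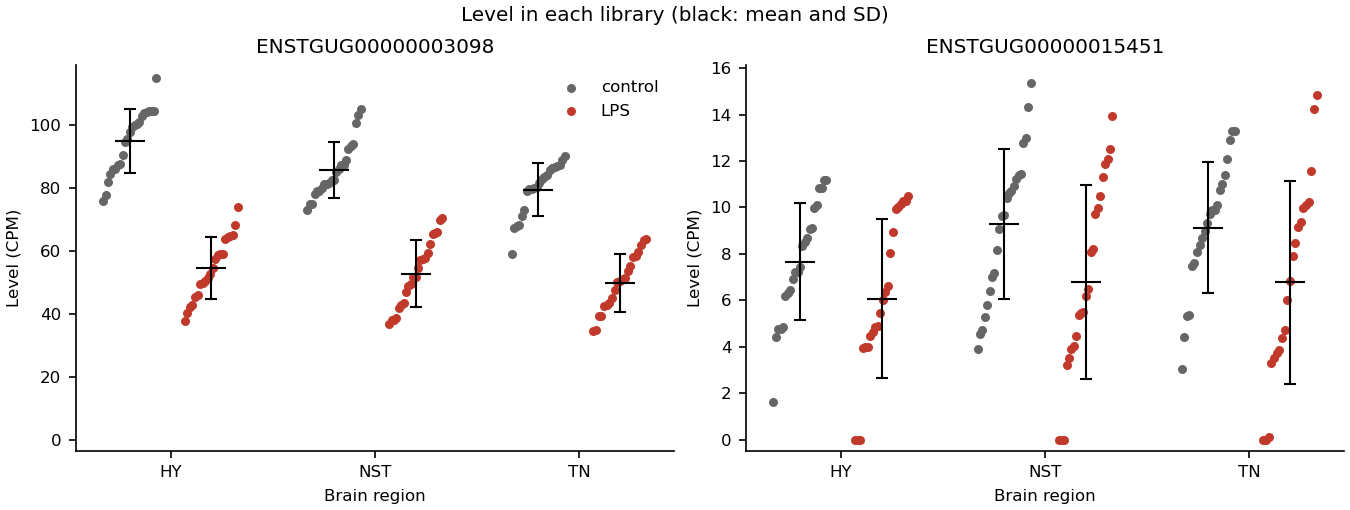
Level (CPM) of both named members in every library of HY, NST and TN, control males in grey and LPS males in red, with mean and SD in black. ENSTGUG00000003098 (left) shows all LPS males below all controls in HY and NST, and ENSTGUG00000015451 (right) shows 3 LPS males at or near 0; the other LPS males lie above the lowest control in HY and TN, and in NST 6 LPS libraries in all lie below it.

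Between these patterns lay a continuum, which the spread between males ordered. The within-group SD of the members had a median of 0.82 log2 units in control males and 1.10 in LPS males, against 0.34 and 0.30 over all genes. In 105 of the 134 members (78.4%) the SD was larger in LPS than in control males, which held for 30.8% of all genes. The larger of both SDs was under 0.5 in 15 members, between 0.5 and 1 in 43, and 1 or more in 76. The last class held 56.7% of the members and 8.97% of all genes. Low read numbers and a large spread go together in counts. The rule also asked for lower mean levels after LPS, which a few very low LPS males can bring. Such males widen the spread of the LPS group. How far either point sets these shares was not tested.

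The 15 members of low spread had more reads, with a median control level of 19.5 CPM, and had a median D of -0.55. In 14 of them D was below 0 in each of the 12 combinations of region and setting. This held for 27 of the 43 members of intermediate spread and 11 of the 76 of high spread. Of all 13548 genes it held for 1.27%. The high-spread class had a lower median control level, 2.56 CPM, and a lower median D, -0.79. The library medians of LPS and control males were also compared. Their difference was -0.4 or less in all regions in 12 of the 15, 37 of the 43 and 43 of the 76 members. Of all 13548 genes 0.915% met this. The classes were cut by the spread in these same libraries, and the rule chose the members by D. Nothing is therefore read from these counts.

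In single regions, some low-spread or intermediate members had levels that did not overlap between the injections. The member of lowest mean D, an intermediate one, had 7.50 ± 1.83 CPM (SD, n = 22) in control and 2.19 ± 0.908 CPM (SD, n = 21) in LPS males of TN. There the lowest control male was at 4.76 CPM and the highest LPS male at 4.01 CPM, so the groups did not overlap. In HY it had 9.37 ± 2.90 (n = 23) and 4.03 ± 1.34 CPM (n = 22), and in NST 8.42 ± 2.45 (n = 23) and 2.63 ± 1.51 CPM (n = 23), with overlap in both. The lowest control male was at 2.42 CPM in HY and 4.70 CPM in NST, and the highest LPS male at 7.44 and 6.32 CPM.

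The member of rank 3 by D over spread had 22.4 ± 5.05 CPM (SD, n = 23) in control and 11.1 ± 2.30 CPM (SD, n = 23) in LPS males of NST, with the lowest control male at 15.1 and the highest LPS male at 14.3 CPM. Its levels were 26.6 ± 6.28 and 12.9 ± 2.92 CPM in HY, and 18.9 ± 3.89 and 10.5 ± 2.80 CPM in TN. Complete separation, with every LPS library below every control library, occurred in 1 member in HY, 2 in NST and 1 in TN, where the share over all genes was 0.00738%, 0.0148% and 0.00738%. The rule used the same contrast, so nothing is read from these shares.

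By edgeR with adjustment over all genes tested, 52 of 132 members tested had fallen in HY, where 1.64% of all tested genes were called as falls. The counts were 56 of 134 in NST, with 1.88% of all genes, and 43 of 132 in TN, with 1.18%. Since the rule used this contrast, these counts only describe how the members are composed. Of the 134 members 30 were called in all regions, 19 in 2, 23 in 1 and 62 in none. The low-spread class held 14, 15 and 15 called members of 15 in HY, NST and TN. The high-spread class held 10, 11 and 10 of 76.

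Some members were far below their control median in single males. For 42 of the 134 members (31.3%), at least 1 male lay 8-fold or more below the control median in every region sampled from it, against 390 of the 13548 genes (2.88%). Such males were LPS males in 41 members (30.6%) and control males in 22 (16.4%), and in 20 members (14.9%) they were LPS males only. Over all 13548 genes the same counts were 267 (1.97%), 258 (1.90%) and 132 (0.974%). LPS males outnumbered control males in 34 members and were outnumbered in 2, whereas over all 13548 genes both directions had 168 genes. The rule favours members in which LPS males are the low ones, so this difference describes how these genes came to meet it and is not a result about LPS. In 21 members a male had no read at all in any of its regions, and in 12 of these members only LPS males did.

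Counted over genes and males, there were 109 such cases in LPS males and 53 in control males among the members, and 480 and 491 among all 13548 genes. An LPS male was low in a median of 5 members (range 0 to 9) and a control male in a median of 2 (range 0 to 7), a difference that the rule favours. Over all 13548 genes the medians were 22 genes (range 2 to 38) and 21 genes (range 13 to 39). The 6 LPS males of ISO were low in 6 to 9 members each and in 22 to 30 of all genes. Without males 19, 32 and 33, whose libraries do not match across regions, 40 members had such a male and LPS males outnumbered control males in 32.

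Among members in which only LPS males were without a read in every region, the one with the highest read level, at a control level of 47.7 CPM, had 1 such male (male 48, of KF). Its level in HY ran from 0 through a median of 45.8 to 173 CPM in LPS males and from 14.6 through 45.7 to 205 CPM in control males. The medians of the injections thus differed little although D was -0.70 in HY. Another member had 8 low LPS males and 7 low control males of 23 each, so that its low level occurred in both groups. The median difference was -0.4 or less in all regions in 21 of the 42 members with such a male. It was so in 71 of the other 92. The rule chose the members by D, so nothing is read from these counts.

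**Figure D3:**
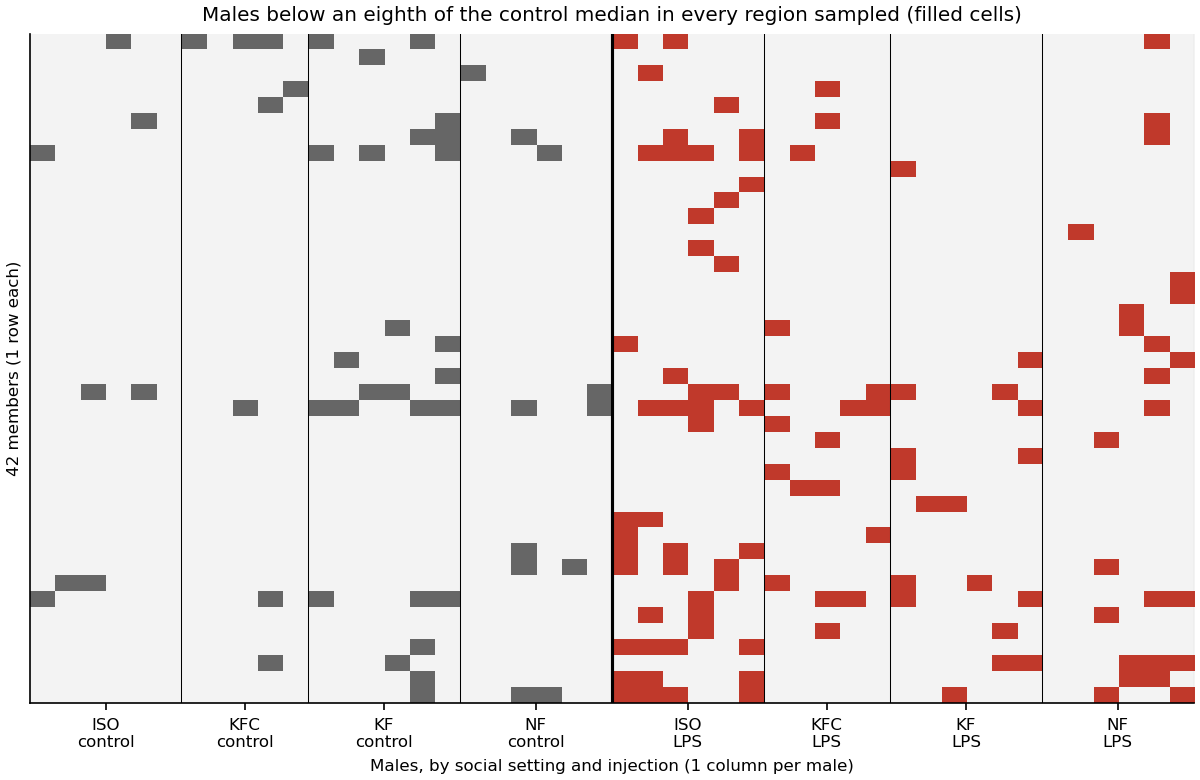
Each of the 42 rows is a member with at least 1 male 8-fold or more below the control median in every region sampled, and each of the 46 columns is a male, grouped by injection and setting; filled cells mark such males (grey control, red LPS). There are 109 filled cells among LPS males and 53 among control males.

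Whether a male was high or low was shared by its regions. The deviations of control males from their group means correlated between regions with a median Pearson r of 0.57 over the members, against 0.31 over all genes. By class of spread the median r in control males was 0.40 for SD under 0.5, 0.43 for 0.5 to 1 and 0.74 for 1 or more. In LPS males the same classes had 0.61, 0.48 and 0.63, so r did not rise steadily with the class there. The LPS values include males 19, 32 and 33, whose libraries do not match across regions. The rule asked for a fall in all regions of the same males, so it favours genes whose deviations the regions share. The points are up to 23 males of an injection, and the libraries of a male share the bird and its handling. Among control males an r of 0.9 or more occurred in 17 members (12.7%), against 1.48% of all genes. Between different members, by contrast, the median correlation over the 23 control males was 0.017, against 0.017 between pairs of all genes and 0.13 among the 15 low-spread members.

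The rule's dependence on single males was counted by leaving out each of the 46 males in turn. Between 126 and 150 genes then met the rule, 81 of the 134 members met it each time, and 53 were lost at least once. With medians over the males of a group in place of means, 135 genes met it, 99 of them members.

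The mean level of the members in a library, relative to the control mean of its region, separated the injections to a large degree. In HY the LPS libraries ran from -1.08 to -0.24 with a median of -0.75 log2 units, and the control libraries from -0.61, in male 44, to 0.24. In NST the LPS libraries ran from -1.37 to -0.24, the highest being male 3 of NF, and the control libraries from -0.33 to 0.42. In TN they ran from -1.11 to -0.51 and from -0.46 to 0.36, without overlap. That the injections separate follows from the choice of the members.

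**Figure D4:**
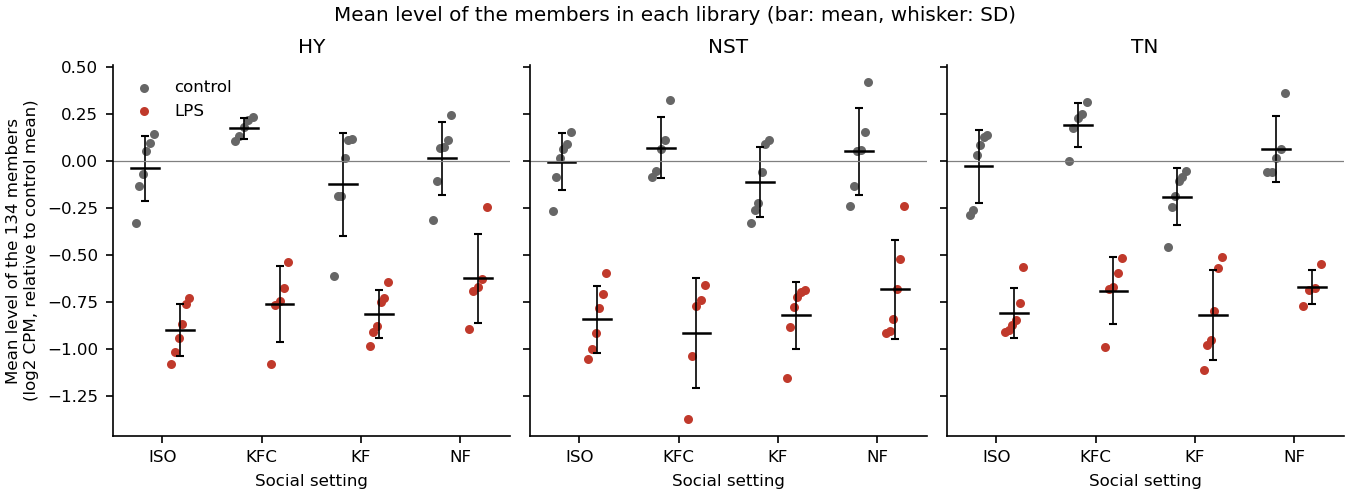
Mean log2 level of the 134 members in each library relative to the control mean of its region, by social setting, for HY, NST and TN (grey control, red LPS; bar, group mean; whisker, SD). The KFC controls have the highest control mean in every region, at 0.17, 0.072 and 0.19 log2 units. The NF controls come next, at 0.015, 0.053 and 0.065.

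The rule used the mean of D over the settings, so the D of each setting entered it, and these values are a description. The median D of the members was lowest in KFC in every region, at -0.90, -0.97 and -0.82 in HY, NST and TN, and lay between -0.56 and -0.78 in the other settings. KFC gave the lowest D of the 4 settings in 48, 56 and 49 of the 134 members in HY, NST and TN (35.8%, 41.8% and 36.6%), beside 28.7%, 18.0% and 22.4% of all 13548 genes. The mean member level in the KFC control libraries was the highest of the control groups, at 0.17 ± 0.056 log2 units in HY, 0.072 ± 0.16 in NST and 0.19 ± 0.12 in TN (SD, n = 5 each). The NF controls came next, at 0.015 ± 0.19 (SD, n = 6) in HY, 0.053 ± 0.23 (n = 6) in NST and 0.065 ± 0.17 (n = 5) in TN. In NST the KFC and NF control means thus lay close together beside their SDs. The KFC LPS libraries were the lowest LPS group in NST, at -0.91 ± 0.29, but not in HY, at -0.76 ± 0.20, or in TN, at -0.69 ± 0.18 (SD, n = 5 each). In HY and TN the ISO and KF LPS groups were lower.

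The rule set no threshold on the differences of the LPS change between settings. The D of each setting entered its mean, however, so these contrasts are not wholly separate from the choice of members. In single members none of these contrasts passed the threshold. In edgeR's test of the interaction of LPS with setting, 0 of 132, 134 and 132 members were called in HY, NST and TN, where 0% of all genes were called, and DESeq2 called 0 as well. At an unadjusted p under 0.05 the edgeR counts were 12, 11 and 10 members (9.09%, 8.21% and 7.58%), against 4.88%, 3.87% and 4.73% of all genes. How far the choice of members sets these shares was not tested. The member of lowest mean D had the smallest unadjusted interaction p of the members in TN, 0.0022, with an edgeR adjusted p of 0.99.

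The effect of setting averaged over both injections called 0 members with edgeR in each region, where 0%, 0.0417% and 0% of all genes were called in HY, NST and TN. DESeq2 called 0, 1 and 1 members. The share of all genes it called was not taken, so nothing is read from these DESeq2 counts. At an unadjusted p under 0.05 the edgeR counts were 10, 15 and 13 members (7.58%, 11.2% and 9.85%), beside 4.20%, 12% and 8.96% of all genes. Among control males alone the effect of setting called 0 members in each region with edgeR, which called 0% of all genes. DESeq2 called 0 members there as well. The unadjusted edgeR counts there were 3, 3 and 3 members, beside 5.74%, 4.51% and 4.97% of all genes.

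The regions were compared within control males, with the male as a block, and the rule set no threshold on these differences. Its minimum level, however, was a mean of the control levels of the regions. A member under 1 CPM in 1 region therefore passed through a region where it was higher. The lowest control level of a member was 0.215 CPM in HY, 0.827 in NST and 0.146 in TN. How far this sets the shares below was not tested. More members were called higher in HY than in the other regions, in counts that include members under 1 CPM in a region. Of 133 members tested, 62 were higher in HY than in TN by edgeR (46.6%, beside 30.9% of all 13813 genes tested), and 10 were higher in TN (7.52%, beside 30.4%). Between HY and NST, 39 were higher in HY (29.3%, beside 22.2%) and 16 in NST (12%, beside 22.0%). Between NST and TN, 33 were higher in NST (24.8%, beside 19.2%) and 7 in TN (5.26%, beside 19.6%).

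The median fitted difference of the members was -0.25 log2 units for TN minus HY, -0.12 for NST minus HY and -0.14 for TN minus NST, while the medians of all genes were -0.0065, -0.0085 and 0.0011. Without the male as a block 54, 30 and 26 members were called in place of 72, 55 and 40 for TN with HY, NST with HY and TN with NST. With the block, 8461, 6105 and 5373 of all 13813 genes tested were called for these pairs. Without it the share over all genes was not taken. HY was above both other regions in 38 members, of which 14 also had NST above TN. NST was above both in 10 members and TN above both in 4, and no pair of regions differed by the test in 50. The shares of all genes with these patterns were not taken, so nothing is read from these pattern counts. The plain order of mean control CPM, HY over NST over TN, was found in 83 of the 134 members (61.9%), against 45.0% of all genes. It was found in 12 of the 15 low-spread members.

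**Figure D5:**
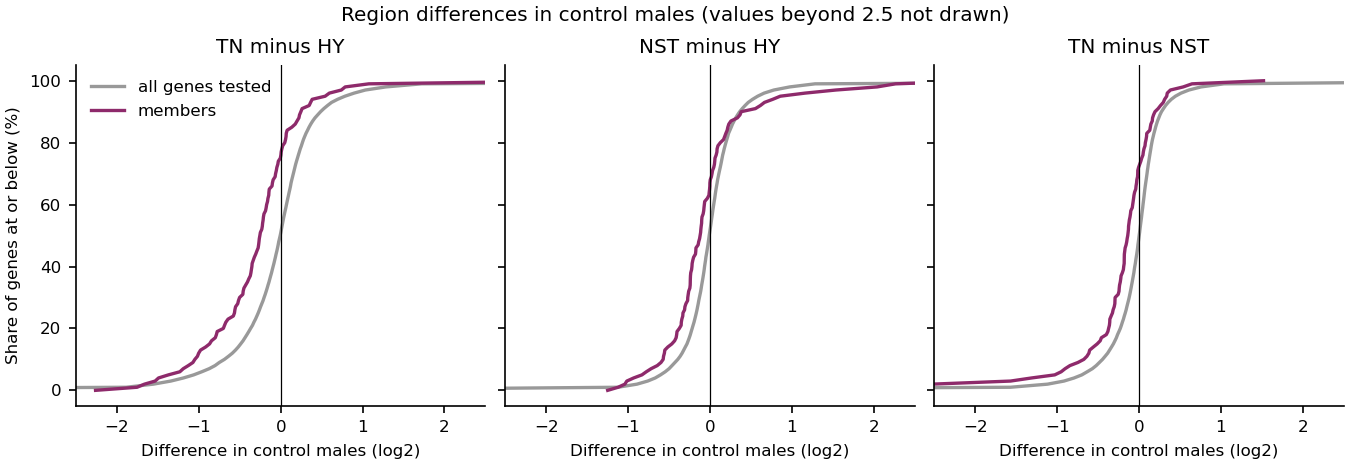
Cumulative distribution of the fitted log2 difference between regions in control males, for the 133 members tested (purple) and all 13813 genes tested (grey). The members' curve lies left of the other for TN minus HY, with a median of -0.25 against -0.0065.

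Among members with a regional pattern, the one of rank 6 by level was at 58.1 ± 16.2 CPM (SD, n = 23) in HY, 37.6 ± 11.7 (n = 23) in NST and 22.5 ± 4.85 (n = 22) in TN of control males. Its differences by edgeR were -1.20 ± 0.12 (SE) for TN minus HY, with an adjusted p of 1.3e-11, and -0.65 ± 0.13 for TN minus NST, with an adjusted p of 4.4e-05. The LPS means kept that order, at 37.8, 23.4 and 15.3 CPM. The member with the largest excess of HY over TN had 6.67 ± 3.32, 2.89 ± 1.49 and 1.29 ± 0.841 CPM in HY, NST and TN of control males.

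Other orders occurred too. In control males, 1 member with few reads had 3.96 ± 4.36 CPM in NST, 0.339 ± 0.345 in HY and 0.146 ± 0.163 in TN. Another had 2.99 ± 1.62 CPM in TN, 1.12 ± 0.911 in NST and 0.215 ± 0.212 in HY. Both reached the required mean of 1 CPM over the regions only through the regions where they are high, so no test of their regional difference is given. The counts of called members above include both. They may include other members under 1 CPM in a region, whose number was not taken.

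ENSTGUG00000003098 varied little between regions. Its level in control males was highest in HY, and by edgeR TN minus HY was -0.11 ± 0.041 log2 units (SE, adjusted p of 0.022), whereas NST minus HY, -0.08 ± 0.040 with an adjusted p of 0.11, did not pass the threshold. ENSTGUG00000015451 was higher in NST and TN than in HY, by 0.33 ± 0.099 and 0.36 ± 0.10 log2 units (SE), with edgeR adjusted p-values of 0.0053 and 0.0015. TN and NST did not differ by the test for either, with edgeR adjusted p-values of 0.64 and 0.83 and differences of -0.03 ± 0.041 and 0.03 ± 0.098.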

How the data were processed

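Polyadenylated RNA of single brain regions was sequenced with NEBNext Ultra libraries, per the labels' protocols. HISAT2 and HTSeq 0.6.1 are named in the submitters' processing notes; the genome build, annotation and strand setting were not given in the sources used here, so overlapping, antisense and near-identical genes may share reads. The authors deposited raw read counts per gene, as whole numbers without normalization. All columns matched a library by its label, 0 were unmapped, and no row lacked a gene identifier.

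The members and lists were chosen with earlier results of these data known. CPM was the count over the column total. Tests used edgeR 4.0.16 in R 4.3.3 (filterByExpr with minimum count 10 and total 15, TMM, quasi-likelihood, Benjamini-Hochberg adjustment over all genes, 2-sided, threshold 0.05), per region on 8 groups, and for regions on control libraries with the male as a block. The SE of a log2 difference was derived from the fitted difference and its F statistic. DESeq2 1.42.0 was an alternative, and the models were tested on simulated data. Further alternatives were DESeq2 size factors, no filter, another prior count, medians, no minimum level, 4 libraries left out and each male left out. The design text says that regions came from the same males, and the number in the labels was taken as the male; 40 of 42, 42 of 45 and 42 of 43 libraries correlated best with the library of their own number for TN with HY, NST with HY and TN with NST. Replicates are thus separate males.

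No name table matched, so the gene lists and cell type markers listed for use were not usable. The rule for named genes then gave at most 2 identifiers, the member of highest control level and that of largest D over within-group SD, which were the same gene; a second was chosen after its values were seen.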

Additional observations from a re-analysis of the deposited data

Results flagged for a closer look

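Among 72 combinations of a named gene or the mean member level with a group of 4 to 6 males, 2 had a male far from the others of its group by Dixon's test at 95%, which chance gives in about 1 of 20 groups. For ENSTGUG00000003098, the NST library of control male 28 in NF stood at 103.2 CPM, above the next highest of its 6 males at 82.4 CPM. For ENSTGUG00000015451, the TN library of LPS male 16 in ISO stood at 14.25 CPM, above the next highest of its 6 males at 4.71 CPM.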

How the results depend on the processing

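Of 1036 values recomputed under alternatives, 1032 stayed close to the main value. For a count this meant within 1.5 times, by size and not by which genes it held. For D of the 2 named genes it meant a shift smaller than the pooled within-group SD. That limit is wide for ENSTGUG00000015451, whose D averaged 0.65 of its SD. The sign of D reversed in 0 cases, and the counts have no direction to reverse. Without the male as a replicate block, 30 members differed between NST and HY and 26 between TN and NST, in place of 55 and 40. DESeq2 called 1 member in NST and 1 in TN for the setting effect averaged over injections, where edgeR called 0. The share of all genes called by DESeq2 was not taken. The rule itself gave 144 genes with TMM, 145 with DESeq2 size factors, 111 with a prior count of 2, 135 with medians and 193 with no minimum level. Leaving out 1 male at a time gave 126 to 150 genes by the rule, 48 to 58, 50 to 60 and 35 to 47 members called as LPS falls in HY, NST and TN, 71 to 76, 53 to 62 and 35 to 46 members that differed between TN and HY, NST and HY, and TN and NST, and 0 to 0 for the setting and interaction tests. These members were the list chosen with all males, and the share of all genes called with a male left out was not taken. The LPS falls use the contrast that chose the members, so nothing about LPS is read from their ranges. For ENSTGUG00000015451 male 24 moved D by over 1.5 times in HY and TN, to -0.67 and -0.75. Without males 19, 32 and 33, an alternative chosen after seeing the data, 40 members had a male 8-fold below the control median in place of 42. Members near 1 CPM rest on few reads per library, which limits what a single value shows.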
